A study of Homo sapiens with 6 samples.

Results

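The cancer-testis antigen families are groups of closely related genes, most of them on chromosome X. The members were every protein-coding gene whose symbol begins with MAGEA, MAGEB, MAGEC, GAGE, XAGE, PAGE, SSX or CTAG, together with PRAME. By this rule 65 of the 58174 genes in the deposited table were members, of which 60 belong to the families. The other 5, SSX2IP and 4 CTAGE genes, share only the beginning of a symbol with them and are other genes. Of the members, 59 lie on chromosome X and PRAME lies on chromosome 22. A further 12 genes of these families or of the CTAGE group in the reference annotation, among them MAGEA9, GAGE2B to GAGE2E, GAGE12I, GAGE13 and XAGE1C to XAGE1E, had no matching identifier and were not analysed here.

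These genes are active in the germ cells of the testis, some of them also in placenta, and are silent in most other adult tissues. Many tumours express them again, which is why their products were found as antigens recognised by T cells and are used as targets of immunotherapy. In somatic cells they are kept off mainly by DNA methylation at their promoters, and methylation of a CpG inside a binding word of ETS transcription factors is known to keep MAGEA promoters inactive.

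Total RNA of AGS cells, a line from a human gastric adenocarcinoma, was sequenced in 6 libraries. The 3 si-NC libraries are from cells given a negative control siRNA, with the genotype label wild type. The 3 si-FTO libraries are from cells given siRNA against FTO, an RNA demethylase that acts on N6-methyladenosine, and their genotype label reads FTO-/-. Groups were taken from the library titles, and whether the cells were siRNA-treated or edited could not be told from the values. FTO itself had 33.1 TPM in si-NC compared with 7.27 TPM in si-FTO (log2 ratio -2.05).

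TPM is the share of a gene among all transcripts, corrected for length and scaled to the same total in every library, so that levels of different genes can be compared. The table holds 1 mean TPM per group, which is the authors' mean over its libraries. Such means carry no spread over the libraries and allow no test here, and the sequencing depth is unknown. The authors' own comparison in the table was not used. Log2 ratios are si-FTO over si-NC after adding 1 TPM to each mean, which understates the difference of weakly expressed genes. A gene was compared when its mean reached 0.5 TPM in either group, and is called higher or lower when its log2 ratio was at least 1 in size. A value of 0.0001 TPM was read as 0. No fold of the means themselves is given against a group listed at 0. A log2 ratio against such a group depends on the TPM added.

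Most members had low values or were listed at 0. Of the 65 members, 43 stayed under 0.5 TPM in both groups, as did 5458 of 19634 protein-coding genes and 37681 of the 58174 genes in all. The highest value of these 43 members was 0.366 TPM, and 20 of them were listed at 0 in both groups. The 22 members compared were 6 MAGEA genes, 10 GAGE genes, MAGEB2, MAGEC2, XAGE2, PAGE5, PRAME and SSX2IP. Of these, 12 were higher and 5 lower in si-FTO, and 5 were within the fold. Among all 20493 genes compared, 11.4% were higher and 17.0% lower by the same definition, and among the 522 protein-coding genes of chromosome X, 12.3% were higher and 26.8% lower. The share of higher genes was 54.5% among the members, and their share of lower genes (22.7%) was close to that of chromosome X. Of the 12 higher members, 7 reached 0.5 TPM in si-FTO alone, which fixed their direction. These shares are therefore not read as a difference from either background. The median log2 ratio was 1.59 over the members compared and -0.20 over all genes compared. This median rests on the same 22 values, including the 7 whose direction was fixed and 9 higher GAGE genes that share sequence. It is therefore not read as a difference from all genes either.

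These counts are descriptions of a small group. A member that passed 0.5 TPM only in the group where it was high had to differ, and 11 of the 22 did so, 7 through si-FTO and 4 through si-NC. Of the 11 members above 0.5 TPM in both groups, 5 were higher, 3 lower and 3 within the fold, while of the 15535 genes above it in both groups 9.42% were higher and 11.8% lower. In addition, 9 of the 12 higher members were GAGE genes, which share most of their sequence, and a sequencer read from one can be assigned to another. When members that share any word of 50 bases were summed into 1 value, 2 of 10 values were higher and 1 was lower. This joined 11 MAGEA genes into 1 value within the fold (log2 ratio 0.77), so that genes higher and lower in si-FTO offset each other. Among them was MAGEA1 (log2 ratio 3.82), although 99.3% of its words occur in no other gene.

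**Figure D1:**
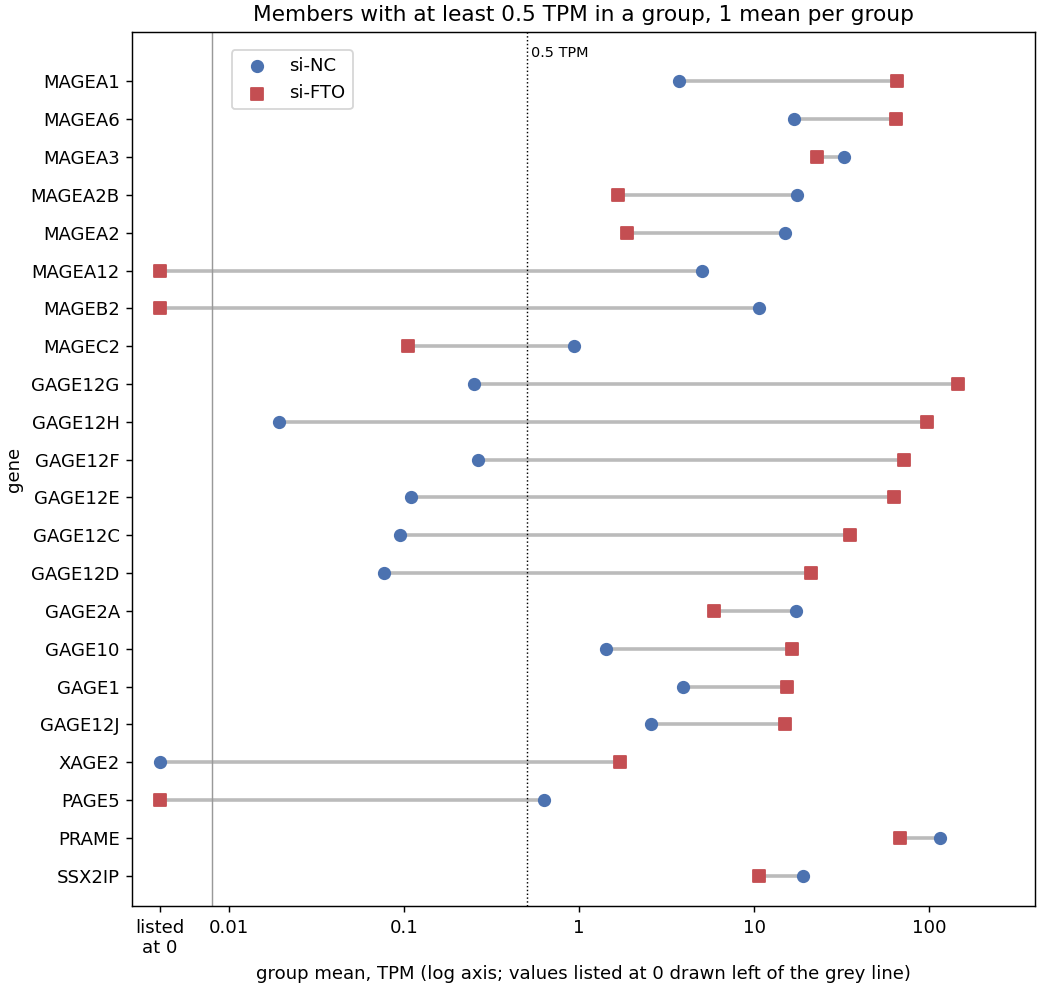
Mean TPM in si-NC (circles) and si-FTO (squares) of the 22 members that reached 0.5 TPM in a group, on a log axis, with values listed at 0 drawn apart on the left. There is 1 mean per group and no error bar. MAGEA12, MAGEB2 and PAGE5 were listed at 0 in si-FTO and XAGE2 in si-NC, and 6 GAGE12 genes lay under 0.5 TPM in si-NC and between 21.1 and 147 TPM in si-FTO.

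Promoter windows of 5 members, picked with their values in view, are shown here. They are those of the RefSeq table for GRCh38.p14, each of 300 bases, 250 before the start of transcription and 50 after it, read on the strand of the gene. Capitals mark each CpG. The MAGEA3 window (chrX:152698544-152698843, plus strand) is identical over its whole length to that of MAGEA6 (chrX:152769640-152769939, minus strand), and holds 19 CpG. The GAGE2A window (chrX:49589246-49589545, plus strand) with 13 CpG is identical to windows of 7 other GAGE genes, namely GAGE1, GAGE12C, GAGE12D, GAGE12E, GAGE12F, GAGE12H and GAGE12J. The MAGEA12 window shown (chrX:152733612-152733911, plus strand) has 15 CpG, the MAGEB2 window (chrX:30215313-30215612, plus strand) 21 and the PRAME window shown (chr22:22559216-22559515, minus strand) 13. MAGEA12 has another window with 9 CpG, and PRAME has others with 12 and 4 CpG.
MAGEA3: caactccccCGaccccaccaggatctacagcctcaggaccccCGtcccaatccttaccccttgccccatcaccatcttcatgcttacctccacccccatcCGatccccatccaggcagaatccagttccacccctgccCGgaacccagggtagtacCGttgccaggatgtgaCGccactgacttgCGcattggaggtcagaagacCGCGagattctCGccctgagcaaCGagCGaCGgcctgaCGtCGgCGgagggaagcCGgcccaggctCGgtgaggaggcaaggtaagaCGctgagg
MAGEA12: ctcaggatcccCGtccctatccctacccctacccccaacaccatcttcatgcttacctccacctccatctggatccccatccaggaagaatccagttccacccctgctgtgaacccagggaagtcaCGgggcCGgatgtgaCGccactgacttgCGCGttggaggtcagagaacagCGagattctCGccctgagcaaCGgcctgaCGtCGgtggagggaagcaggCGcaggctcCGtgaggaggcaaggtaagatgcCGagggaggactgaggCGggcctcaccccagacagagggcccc
MAGEB2: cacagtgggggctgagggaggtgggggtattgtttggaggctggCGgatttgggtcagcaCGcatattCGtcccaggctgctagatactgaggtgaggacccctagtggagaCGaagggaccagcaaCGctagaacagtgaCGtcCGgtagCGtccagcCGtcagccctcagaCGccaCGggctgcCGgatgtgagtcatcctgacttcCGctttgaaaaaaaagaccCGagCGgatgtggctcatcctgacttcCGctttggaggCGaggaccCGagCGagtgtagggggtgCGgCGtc
GAGE2A: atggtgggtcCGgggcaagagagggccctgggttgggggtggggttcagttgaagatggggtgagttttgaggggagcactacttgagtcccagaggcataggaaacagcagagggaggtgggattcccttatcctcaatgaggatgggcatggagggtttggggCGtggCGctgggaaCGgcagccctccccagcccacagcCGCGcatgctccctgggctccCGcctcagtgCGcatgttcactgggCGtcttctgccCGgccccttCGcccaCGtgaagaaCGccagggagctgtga
PRAME: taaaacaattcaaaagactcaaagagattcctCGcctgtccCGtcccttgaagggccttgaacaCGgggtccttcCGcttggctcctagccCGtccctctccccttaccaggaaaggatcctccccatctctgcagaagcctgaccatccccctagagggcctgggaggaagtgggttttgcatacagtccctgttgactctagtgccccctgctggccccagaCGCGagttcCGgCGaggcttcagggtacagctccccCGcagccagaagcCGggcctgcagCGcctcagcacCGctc

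The word CCGGAA, a core ETS word that holds a CpG, was searched on both strands. It occurred once in the window shown for MAGEA3 (and in that of MAGEA6), once in that shown for PRAME but in none of its others, and not in those of MAGEA12, MAGEB2 and GAGE2A. Other ETS words that hold a CpG were not searched, so a window without CCGGAA may still hold one. Over the 70 windows of 52 genes of the families, 5 windows (7.14%) held CCGGAA, compared with 17.2% of all 35116 windows. Of the 70, 12 are GAGE windows, many of them identical and none with this word. The MAGEA3 and MAGEA6 matches are 1 sequence counted for each gene, so copies weigh on this share. The median number of CpG was 12 in the family windows and 14 in all windows. Family genes with at least 1 TPM in a group had a median of 13 CpG over 23 windows, and those under 1 TPM in both groups a median of 10 over 47 windows. Of the 23, 11 are GAGE windows, most of them with 13 CpG and many identical, so copies of 1 sequence weigh on that median. A match describes the reference sequence, and no methylation was measured here. MAGEA1, MAGEA10, MAGEB17, SSX3 and the CTAG genes had no window.

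The MAGEA genes encode proteins that bind ubiquitin ligases of the RING type through a shared MAGE homology domain. MAGEA1, the gene in which the families were discovered, had 3.72 TPM in si-NC against 65.9 TPM in si-FTO. This was 17.7-fold higher in si-FTO, with a log2 ratio of 3.82. As listed, MAGEA1 and MAGEA6 had nearly equal levels in si-FTO and were the most abundant MAGEA genes there. MAGEA1 shares little sequence with its relatives, since 99.3% of the 50-base words in its annotated transcripts occur in no other gene.

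MAGEA3 and MAGEA6 are near-identical genes whose proteins partner with the ligase TRIM28 and direct the alpha1 subunit of AMPK to degradation. MAGEA3 was the most abundant MAGEA gene of si-NC, with 32.6 TPM compared with 22.8 TPM in si-FTO (log2 ratio -0.50, within the fold). MAGEA6 had 16.9 TPM in si-NC but 64.3 TPM in si-FTO, 3.81-fold higher, with a log2 ratio of 1.87. Of the words of MAGEA3, 50.7% also occur in MAGEA6, and of those of MAGEA6, 59.7% occur in MAGEA3, so how reads were divided between them is uncertain. Their sum depends less on that division, and was 49.4 TPM in si-NC compared with 87.1 TPM in si-FTO (log2 ratio 0.80).

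MAGEA2 and MAGEA2B, copies of a gene whose protein also binds TRIM28, were lower in si-FTO. MAGEA2 had 14.9 TPM in si-NC against 1.88 TPM in si-FTO (log2 ratio -2.47). For MAGEA2B the values were 17.6 and 1.67 TPM, a log2 ratio of -2.80. MAGEA2 shares 94.4% of its words with MAGEA2B, so the separate values are uncertain, but the sum of the pair, from 32.6 to 3.55 TPM with a log2 ratio of -2.88, went the same way. MAGEA12 had 5.05 TPM in si-NC and was listed at 0 in si-FTO, and 88.8% of its words are its own. MAGEA4, MAGEA8, MAGEA10, MAGEA11 and both genes named MAGEA9B had at most 0.172 TPM in either group.

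As listed, MAGEA3, MAGEA2B, MAGEA6 and MAGEA2 made up 35.6%, 19.3%, 18.4% and 16.3% of the family's sum in si-NC. In si-FTO, MAGEA1 and MAGEA6 made up 42.1% and 41.1% of it. The sum itself was 91.4 TPM in si-NC but 157 TPM in si-FTO, 1.71-fold higher, which with a log2 ratio of 0.77 is within the fold. MAGEA3 and MAGEA6 as a pair, with 49.4 TPM in si-NC compared with 87.1 TPM in si-FTO, were the larger part of the family in both groups.

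**Figure D2:**
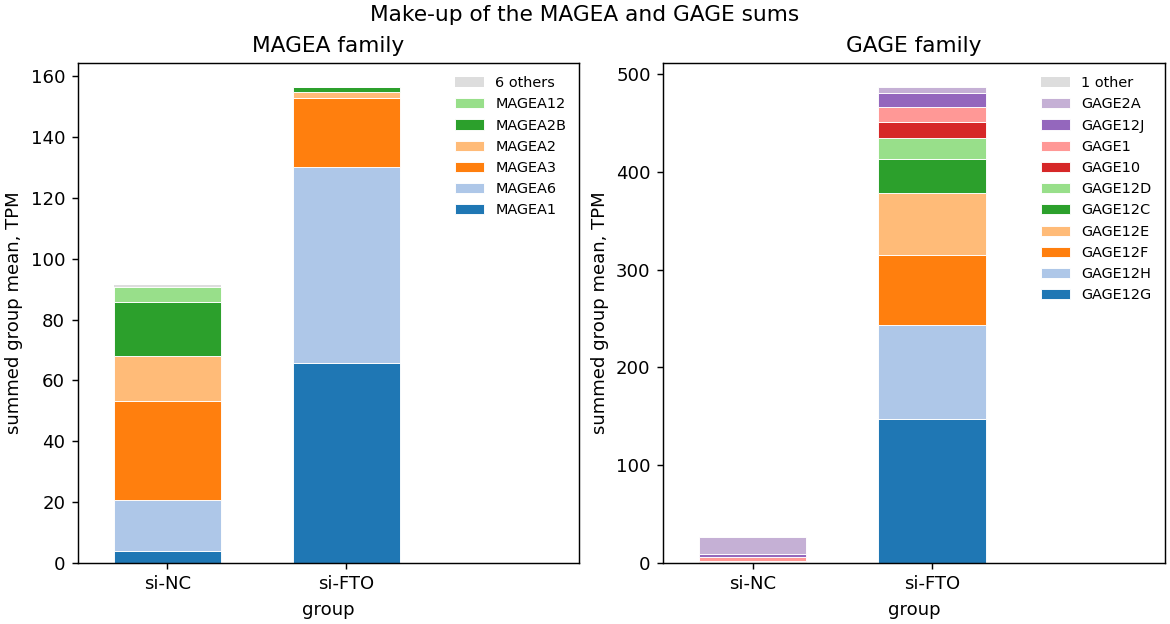
Summed mean TPM of the MAGEA and GAGE families in si-NC and si-FTO, stacked by gene, on linear axes that start at 0. The MAGEA sum was 91.4 TPM in si-NC but 157 TPM in si-FTO, with MAGEA3 and MAGEA6 together the larger part of both. The GAGE sum was 26.2 TPM in si-NC, mostly GAGE2A, and 487 TPM in si-FTO, mostly GAGE12 genes.

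The GAGE genes, short tandem copies encoding small acidic proteins found in germ cells and many tumours, showed the largest difference in summed TPM of the families. Their 11 members together had 26.2 TPM in si-NC compared with 487 TPM in si-FTO, 18.6-fold higher, with a log2 ratio of 4.17. The family accounted for 10.6% of all the families' TPM in si-NC but 68.2% in si-FTO. GAGE12G was the most abundant, with 0.252 TPM in si-NC against 147 TPM in si-FTO, where it ranked 1037 among all genes.

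Of the other GAGE12 genes, 5 lay between 21.1 and 97.1 TPM in si-FTO. In that group, GAGE12H had 97.1 TPM, GAGE12F 71.6 TPM, GAGE12E 62.6 TPM, GAGE12C 35.1 TPM and GAGE12D 21.1 TPM. In si-NC these genes had 0.0193, 0.263, 0.109, 0.0952 and 0.0770 TPM in the same order. The log2 ratios of these genes and GAGE12G ran from 4.36 for GAGE12D to 6.88 for GAGE12G. With a pseudocount of 0.1 TPM they ran from 6.90 for GAGE12D to 9.67 for GAGE12H. No word of GAGE12C, GAGE12D, GAGE12E or GAGE12G belongs to 1 gene alone, and GAGE12E overlaps GAGE12F on the same strand, so the separate values are uncertain. The sum of GAGE12B to GAGE12H was 0.830 TPM in si-NC but 434 TPM in si-FTO (log2 ratio 7.89). This sum also depends on how reads were divided, since 75.2% of the words of GAGE12G occur in GAGE2A and 70.3% in GAGE12J, and GAGE2E, a gene without a row in the table, holds 76.4% of the words of GAGE12J. GAGE12B, annotated with a short transcript, contributed 0.0139 and 0.0482 TPM to these sums.

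GAGE2A went the other way. It had 17.4 TPM in si-NC, where it made up 66.6% of the family's sum, and 5.90 TPM in si-FTO, where it made up 1.21%. Its log2 ratio was -1.42, and 9.82% of its words are its own, while 75.6% also occur in GAGE12G. GAGE1 had 3.92 TPM in si-NC compared with 15.5 TPM in si-FTO (log2 ratio 1.74). For GAGE10 the values were 1.42 and 16.5 TPM, a log2 ratio of 2.85, and for GAGE12J 2.57 and 15.0 TPM, a log2 ratio of 2.16.

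GAGE1, GAGE2A, GAGE10 and GAGE12J were the GAGE genes with at least 1 TPM in si-NC, and together had 25.3 TPM in si-NC against 52.8 TPM in si-FTO, 2.08-fold higher. With a log2 ratio of 1.03, this lay just past the fold. GAGE2A and GAGE12H, whose promoter windows are identical, had log2 ratios of -1.42 and 6.59. The GAGE12G window was 98.0% identical to that of GAGE2A in an alignment over its whole length, and that of GAGE10 88.7%. Of the words of GAGE1 and GAGE10, 87.1% and 60.1% are their own, but those of GAGE2A and GAGE12J mostly occur in GAGE12G as well. How reads were split among these genes was not tested.

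**Figure D3:**
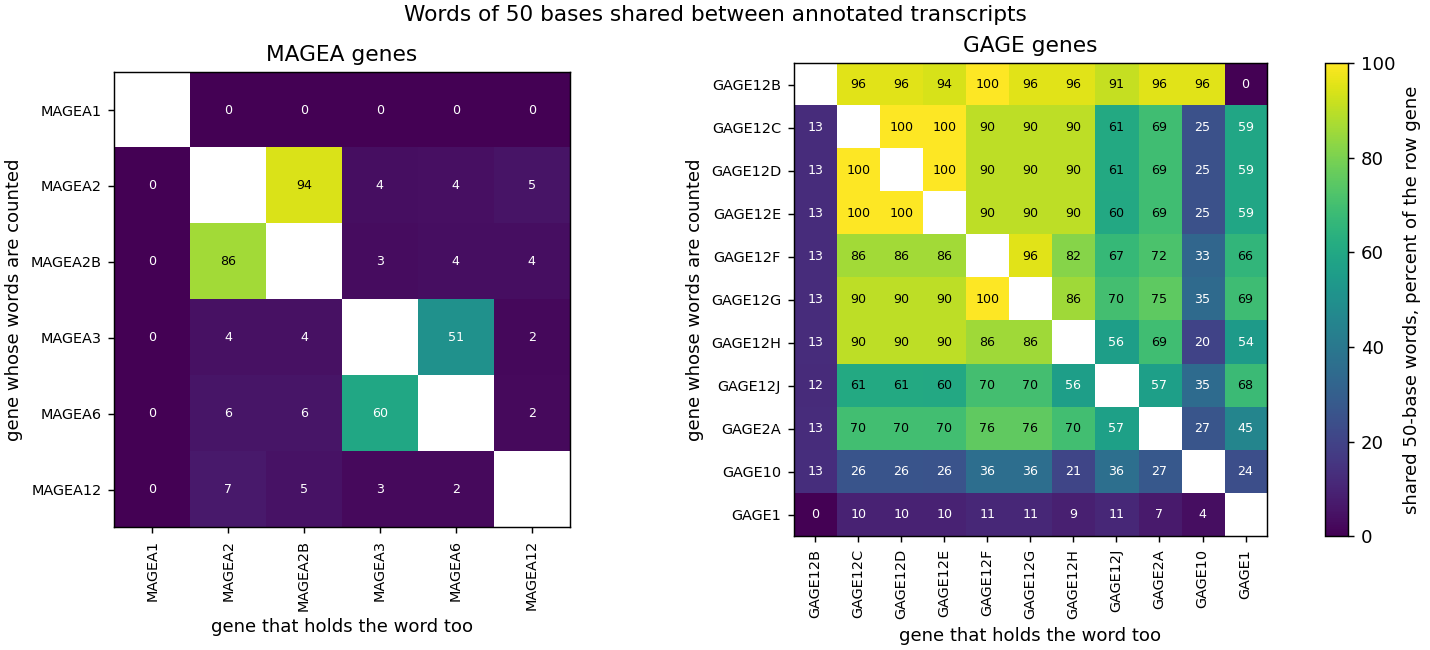
Share of the 50-base words in the annotated transcripts of each gene (row) that also occur in another gene (column), in percent, for MAGEA genes with at least 1 TPM in a group and all GAGE members. MAGEA2 shares 94.4% of its words with MAGEA2B and MAGEA6 shares 59.7% with MAGEA3, while MAGEA1 shares almost none. GAGE12C to GAGE12G are almost wholly made of shared words.

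PRAME, which represses retinoic acid receptor signalling and serves as the substrate receptor of a CUL2 ubiquitin ligase, was the most abundant member in si-NC. It had 115 TPM in si-NC but 68.5 TPM in si-FTO (log2 ratio -0.74, within the fold). All of its words are its own. In rank among all genes it stood at 1309 in si-NC and 2427 in si-FTO. PRAME made up 46.9% of the families' TPM in si-NC but 9.59% in si-FTO, with sums over the families of 246 TPM in si-NC compared with 714 TPM in si-FTO. An annotated gene on the opposite strand was listed at 0 in si-NC and had 0.0287 TPM in si-FTO.

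Of the MAGEB and MAGEC genes, MAGEB2 and MAGEC2 reached 0.5 TPM, both in si-NC. MAGEB2 had 10.6 TPM in si-NC, which was 95.3% of the MAGEB sum, and was listed at 0 in si-FTO, with 100% of its words its own. The remaining 10 MAGEB genes were under 0.5 TPM in both groups, 7 of them listed at 0 in both, and the MAGEB sum was 11.2 TPM in si-NC against a family listed at 0 in si-FTO. MAGEC2, a further partner of TRIM28, had 0.931 TPM in si-NC against 0.105 TPM in si-FTO (log2 ratio -0.81, within the fold). With a pseudocount of 0.1 TPM, the MAGEC sum moved from a log2 ratio of -0.97 to -2.60, past the fold.

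In the small families, no gene had more than 1.72 TPM in either group. XAGE2 was listed at 0 in si-NC and had 1.72 TPM in si-FTO, with a log2 ratio of 1.44 and 100% of its words its own, while XAGE1A, XAGE1B and XAGE3 had at most 0.0845 TPM in si-NC and were listed at 0 in si-FTO. PAGE5 had 0.628 TPM in si-NC and was listed at 0 in si-FTO, and the other 5 PAGE genes were listed at 0 in both groups. With a pseudocount of 0.1 TPM, the PAGE sum, which is PAGE5 alone, moved from a log2 ratio of -0.70 to -2.86, past the fold. Some of the 8 SSX genes are known as fusion partners of SS18 in synovial sarcoma. Of the 8, 6 were listed at 0 in both groups, and SSX2 and SSX2B each had 0.0121 TPM in si-NC. CTAG1A and CTAG1B, identical copies of the gene for the antigen NY-ESO-1, had 0.0112 TPM each in si-NC and 0.262 and 0.285 TPM in si-FTO, while CTAG2 had 0.0979 TPM in si-NC and was listed at 0 in si-FTO. All of these but XAGE2 and PAGE5 were under 0.5 TPM and were not compared.

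Among the genes that only share a symbol's beginning, SSX2IP, a centrosomal protein that binds SSX2, had 19.1 TPM in si-NC but 10.6 TPM in si-FTO (log2 ratio -0.79). The CTAGE genes were at or under 0.189 TPM in both groups. With a pseudocount of 1 TPM, the members nearest to the fold were GAGE2A (-1.42) and XAGE2 (1.44) just past it, and MAGEC2 (-0.81) and SSX2IP (-0.79) just short of it. With a pseudocount of 0.1 TPM, the log2 ratio of XAGE2 was 4.18. Nearest to the 0.5 TPM limit were PAGE5 above it and MAGEB6, with 0.366 TPM in si-NC, below it.

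**Figure D4:**
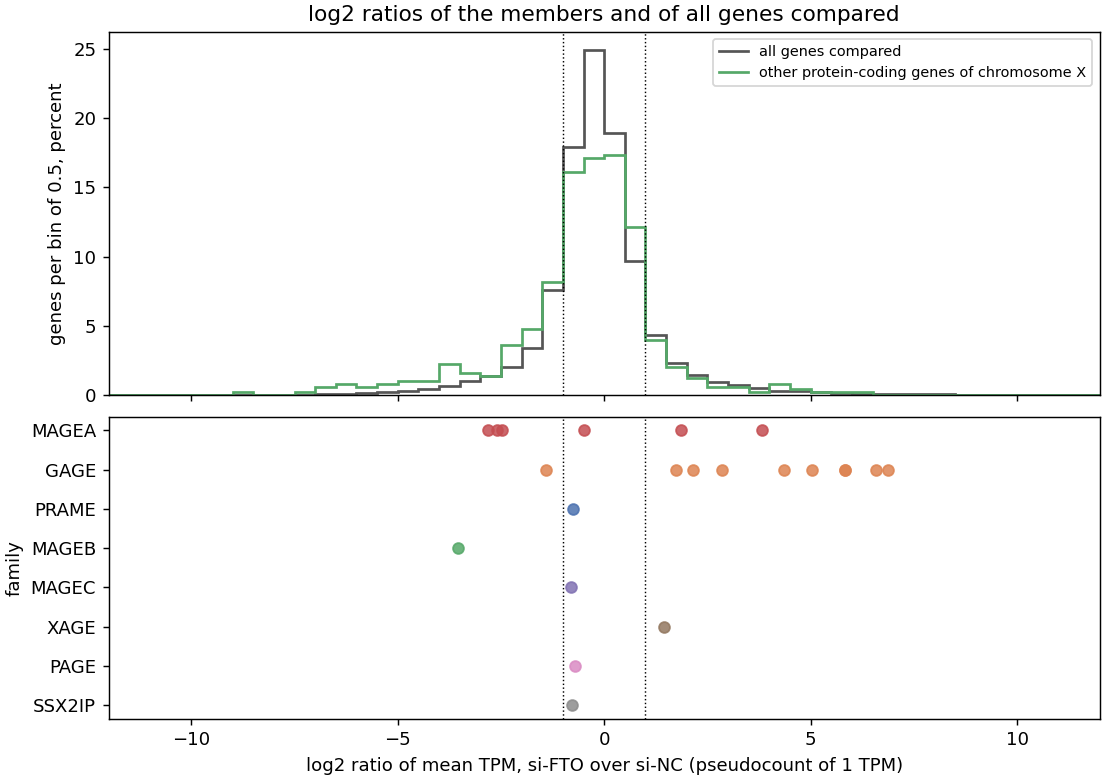
Upper panel, share of genes per bin of 0.5 in log2 ratio (si-FTO over si-NC, pseudocount of 1 TPM) for the 20493 genes compared and for the 502 other protein-coding genes of chromosome X. Lower panel, the 22 members compared, by family. Dotted lines mark the fold. Of the members, 12 lie above it and 5 below it.

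Abundant genes with a si-FTO value of 0 were frequent on chromosome X. Of the 9 members with at least 5 TPM in si-NC, MAGEA12 and MAGEB2 (2 genes) had a si-FTO value of 0. The same was found for 33 of 387 protein-coding genes of chromosome X (8.53%) and for 316 of 11869 genes of the whole table (2.66%). In the other direction, 0 of the 15 members that reached 5 TPM in si-FTO had a si-NC value of 0, compared with 1 of 353 protein-coding genes of chromosome X and 103 of 11277 genes in all. The origin of the values at 0 was not tested.

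The genes around the members were not used in the choice of members, and their values are given here along the chromosome. In GRCh37, the 11 GAGE members lie with 5 SSX and 2 PAGE genes in chrX:48045656-49598867. Of the 44 other protein-coding genes within this stretch or next to it, 35 were compared, of which 4 were higher, 4 lower and 27 within the fold. Of all 20493 genes compared, 11.4% were higher, 17.0% lower and 14661 genes within the fold, so these neighbours are not read as unusual. PLP2, a membrane protein gene chosen here after its values were seen, had the largest of the higher ratios, with 97.5 TPM in si-NC compared with 575 TPM in si-FTO. Larger ratios in the lower direction, picked in the same way, were those of PCSK1N, with 46.9 TPM in si-NC and a value listed at 0 in si-FTO, and SYP, with 14.3 and 0.743 TPM. FTSJ1, EBP, WDR13 and most other genes between the SSX and GAGE genes were within the fold. Of the 9 GAGE members higher in si-FTO, 6 reached 0.5 TPM in that group alone, and all 11 share words and become 1 value when summed.

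The MAGEA genes compared lie together with MAGEA4 and MAGEA10 in chrX:151080967-152486116. Of 20 other protein-coding genes in or next to this stretch, 11 were compared, 2 of them higher and 6 lower. The 2 higher were GABRE, with 1.26 TPM in si-NC against 49.5 TPM in si-FTO, and GABRA3, with 0.714 and 6.22 TPM, both genes of GABA receptor subunits. CSAG1, which lies between MAGEA12 and MAGEA2, had 4.35 TPM in si-NC and was listed at 0 in si-FTO, like MAGEA12. PNMA6A had 14.2 TPM in si-NC but 0.497 TPM in si-FTO, and PNMA3 had 3.98 TPM and was listed at 0. These neighbours were also picked after their values were seen. Along the stretch, GABRE, GABRA3 and MAGEA6 were higher, the genes past the fold from MAGEA2B to PNMA6A were lower, MAGEA1 was higher, and ZNF275 and TREX2 were lower. Around all clusters with a member compared, 75 of 117 neighbours were compared, 8 of them higher and 23 lower. These include 6 genes next to PRAME on chromosome 22, with 0 higher and 4 lower. Among the protein-coding genes of chromosome X compared, 12.3% were higher and 26.8% lower.

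**Figure D5:**
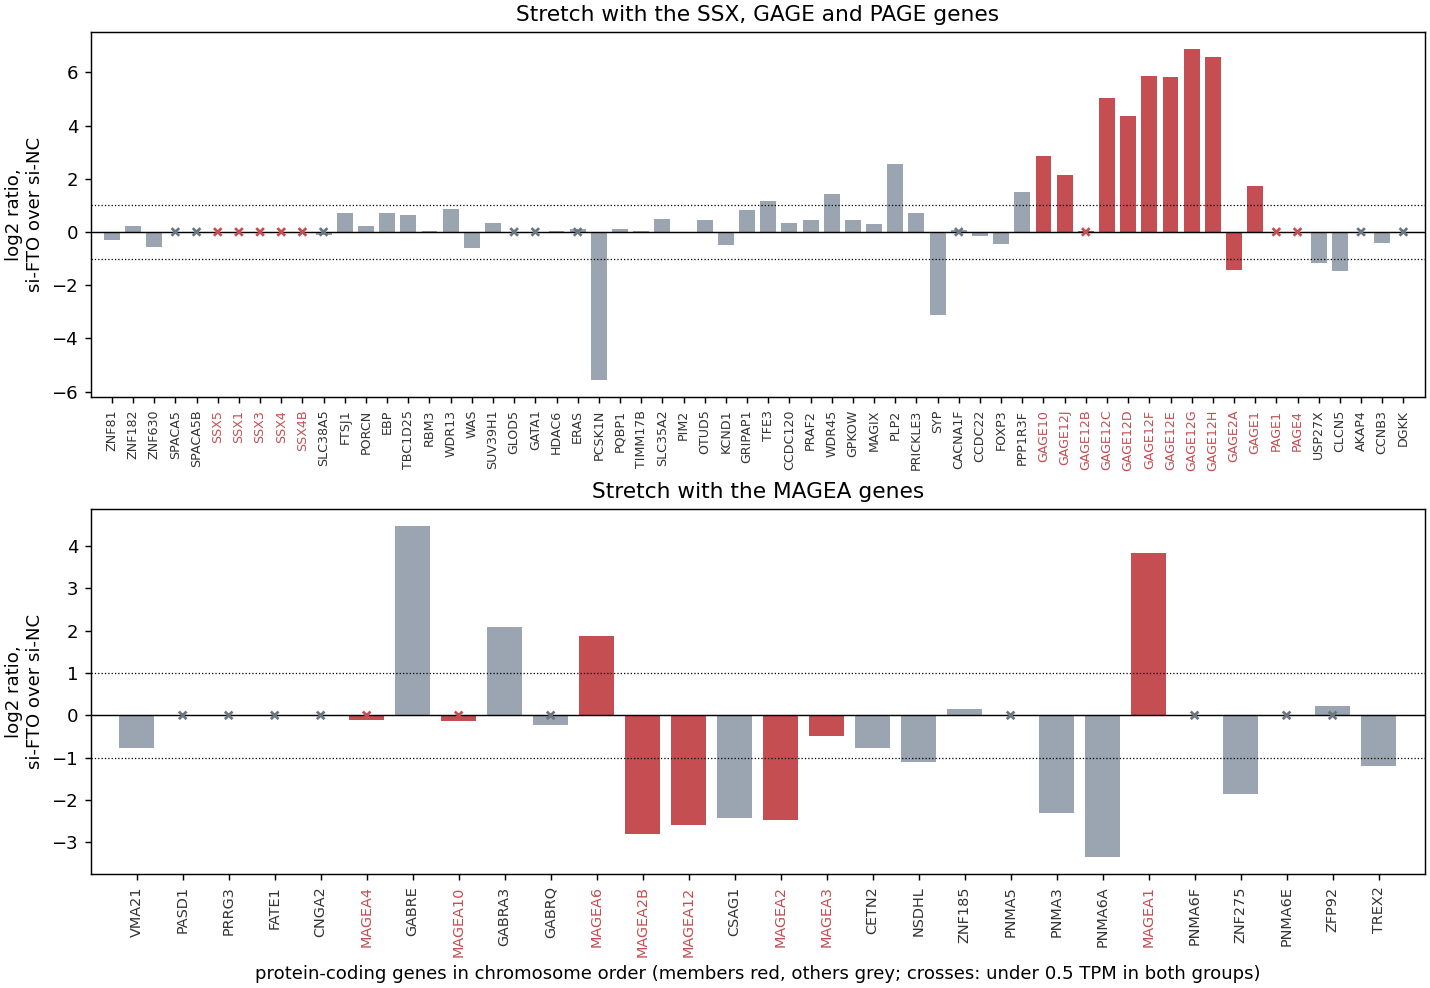
Log2 ratio of mean TPM (si-FTO over si-NC, pseudocount of 1 TPM) for protein-coding genes in chromosome order, members in red and other genes in grey, in the stretch with the SSX, GAGE and PAGE genes and in that with the MAGEA genes. Dotted lines mark the fold and crosses mark genes under 0.5 TPM in both groups. In the GAGE stretch 27 of 35 neighbours compared lie within the fold, as do 14661 of all 20493 genes compared. GAGE2A is the only GAGE member below the fold.

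MAGE genes of the ubiquitous type, which carry the same homology domain but are expressed in many adult tissues, were also compared. Of 12 such genes, 9 were compared, with 0 higher, 6 lower and 3 within the fold. MAGED1, a regulator of apoptosis, had 352 TPM in si-NC compared with 44.2 TPM in si-FTO (log2 ratio -2.97). TRO, a cell adhesion gene of the placenta and uterus, had 40.9 TPM in si-NC against 0.0434 TPM in si-FTO. MAGED4, MAGED4B, MAGEH1 and MAGEE1 had 19.9, 23.3, 13.2 and 3.78 TPM in si-NC and were listed at 0 in si-FTO. Of the 6 lower genes, MAGED1 was above 0.5 TPM in both groups and the other 5 in si-NC alone, so that these could only be lower. On chromosome X as a whole, 26.8% of the protein-coding genes compared were lower.

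Of 46 cancer-testis genes outside the families, 38 were found in the table, 17 of them listed at 0 in both groups. Of the 13 compared, 5 were higher, 4 lower and 4 within the fold, against 11.4% higher and 17.0% lower among all genes compared. ACTL8 and PLAC1 were above 0.5 TPM in both groups, while the other 7 past the fold were above it in 1 group alone, which fixed their direction. Higher in si-FTO were CT83, from a value listed at 0 to 53.6 TPM, ACTL8, from 1.82 to 23.4 TPM, SAGE1, from 0.123 to 10.4 TPM, HORMAD1, a meiotic chromosome axis protein, from a value listed at 0 to 6.41 TPM, and ACRBP, from 0.0469 to 2.33 TPM. Lower in si-FTO were PLAC1, a placental gene, from 18.1 to 2.99 TPM, and 3 genes listed at 0 in si-FTO. These were LDHC, the lactate dehydrogenase of sperm, with 6.17 TPM in si-NC, CSAG1 with 4.35 TPM and IL13RA2 with 2.66 TPM.

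Genes of DNA methylation and histone repression, a list that also holds the TET genes of demethylation, mostly lay within the fold, as did 14661 of all 20493 genes compared. Of 21 such genes 20 were compared, with 1 higher, 3 lower and 16 within the fold, and their median log2 ratio was -0.02. DNMT3B, a de novo DNA methyltransferase, had 34.5 TPM in si-NC but 12.1 TPM in si-FTO (log2 ratio -1.43). DNMT3A, the other de novo enzyme, had 9.77 and 20.9 TPM, a log2 ratio of 1.02. TET1, which oxidises methylated cytosine, had 8.80 TPM in si-NC compared with 0.0257 TPM in si-FTO, and HDAC2, a histone deacetylase, had 72.7 and 31.5 TPM. DNMT1, the maintenance methyltransferase, had 166 and 102 TPM, a log2 ratio of -0.70 within the fold. Whether these levels bear on the members was not tested.

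Genes of known partners of the proteins were expressed in both groups. All 12 were compared, with 1 higher, 1 lower and 10 within the fold. Of all 20493 genes compared, 11.4% were higher, 17.0% were lower and 14661 genes were within the fold. TRIM28, the ligase bound by several MAGE proteins, had 430 TPM in si-NC against 411 TPM in si-FTO. PRKAA1, which encodes the AMPK subunit targeted by MAGEA3 and MAGEA6, had 27.8 TPM in si-NC but 86.9 TPM in si-FTO (log2 ratio 1.61). RBX1, a RING subunit of CUL2 ligases, had 168 and 75.6 TPM, a log2 ratio of -1.14.

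Markers of the labelled cell type differed between the groups as well. Among all genes compared, 11.4% were higher and 17.0% lower. Of 12 markers of gastric epithelium, 7 were compared, with 4 higher, 1 lower and 2 within the fold, and their summed level was 70.3 TPM in si-NC compared with 5026 TPM in si-FTO. KRT8 had 10.8 TPM in si-NC against 3139 TPM in si-FTO, where it was the most abundant of them, and KRT18, its partner keratin, had 52.1 and 1851 TPM. MUC1 had 1.71 and 31.0 TPM and CLDN4 0.226 and 2.70 TPM, while CDH1, the epithelial cadherin, had 3.67 and 0.685 TPM and EPCAM 1.22 and 0.113 TPM. TFF1 and GKN1, which define the gastric surface epithelium, were listed at 0 in both groups, and KRT19 and TFF2 were listed at 0 in si-NC and at most 0.130 TPM in si-FTO. Of the markers of the labelled cell type, KRT8, KRT18, MUC1 and CLDN4 were thus higher in si-FTO and CDH1 lower. EPCAM, with a log2 ratio of -0.99, was just short of the fold. CLDN18 was within it, its si-NC value being 0.627 TPM and its si-FTO value 0.759 TPM. TFF1, TFF2, GKN1 and KRT19 were at or near 0 in both groups. MUC5AC stayed under 0.5 TPM, its si-NC value being 0.00251 TPM and its si-FTO value 0.334 TPM. The part of these marker differences in the members' values was not tested. In bulk RNA, a different share of cells and a different level per cell cannot be told apart. Whether both groups hold the same labelled cells was not tested either, and each log2 ratio here compares the groups as labelled.

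Markers of germ cells, trophoblast and somatic cells of the testis were checked in the same way. The shares over all genes compared were again 11.4% higher and 17.0% lower. Of 7 germ cell markers, DDX4, DAZL, NANOG and SOX17 were listed at 0 in both groups, and the list summed to 11.97 TPM in si-NC but 0.699 TPM in si-FTO, with 3 compared, 0 higher, 1 lower and 2 within the fold. Most of the si-NC sum was KIT, with 10.8 TPM there and a value listed at 0 in si-FTO. Most of the si-FTO sum was NANOS3, with 0.332 and 0.616 TPM, within the fold. For POU5F1 the si-NC value was 0.887 TPM and the si-FTO value 0.0824 TPM, a log2 ratio of -0.80 within the fold. Of 6 trophoblast markers, 2 were compared and both were higher, ALPP with 0.0147 TPM in si-NC compared with 819 TPM in si-FTO and CGA with 0.674 and 4.39 TPM. The list summed to 1.00 TPM in si-NC against 824 TPM in si-FTO, CGB3 was listed at 0 in si-FTO and PSG1 in si-NC. Of 4 markers of somatic cells of the testis, 3 were compared, INHA with 1.83 and 71.4 TPM, CYP17A1 with 0.0386 and 2.94 TPM and AMH with 29.2 and 11.5 TPM. This list summed to 31.1 TPM in si-NC but 85.9 TPM in si-FTO, with AMH the most abundant in si-NC and INHA in si-FTO. The values of these lists went both ways, and their part in the members' values was not tested.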

How the data were processed

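RNA of 3 si-NC and 3 si-FTO libraries of AGS cells was analysed from the table that the authors deposited, which gives TPM for 58174 genes as 1 mean per group. In the study's methods, reads were mapped to hg19 with Bowtie and quantified with RSEM, whereas the submitters' processing notes name HISAT2. The annotation and the use of strand in counting are not given in the sources used here, although the labels name a stranded kit. The table also holds the authors' own comparison, a fold change, p-value and q-value per gene, which was not used. TPM keeps no read number, so the depth is unknown.

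Identifiers were matched to symbols with the reference gene table and to GENCODE genes lifted to GRCh37, which left 2448 of 58174 without a symbol. A value of 0.0001 TPM was read as 0. The log2 ratio of si-FTO to si-NC was computed with a pseudocount of 1 TPM among genes that reached 0.5 TPM in a group, and values of at least 1 in size were counted. Words of 50 bases were compared over all annotated transcripts of GRCh37. Promoter windows came from RefSeq (GRCh38.p14), and 57 of 64 member symbols matched. Windows were aligned globally. The identity between proteins that was planned was not computed. Neighbours were the 5 nearest protein-coding genes on each side of members lying within 1000000 bases of each other, and those between them. Alternatives were a pseudocount of 0.1 TPM, median-ratio scaling of the means, other minimum levels, a log2 ratio of 2, leaving out SSX2IP and the CTAGE genes, and summing members that share words.

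The genes named are PRAME, members with at least 1 TPM in a group, the most abundant of each family, members near the fold or the limit, and, of each list, up to 8 genes with at least 1 TPM and past the fold. Other genes, such as markers listed at 0 and members of lists within the fold, were picked with their values in view. The members and lists were chosen with earlier results of these data known. Python 3.11.15, numpy 2.4.6, pandas 2.3.3, Biopython 1.88 and matplotlib 3.10.9 were used. The calculations were tested on simulated data, which says nothing about the error of these means.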

Additional observations from a re-analysis of the deposited data

How the results depend on the processing

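No paired analysis was possible because the table holds 1 mean per group, and for the same reason no library could be left out. The unknown depth and spread between libraries limit every value. None of the values recomputed changed sign past the fold. The count of 12 higher and 5 lower members was the same with median-ratio scaling (all genes 13.3% higher and 14.8% lower), and was 12 and 7 with a pseudocount of 0.1 TPM (all genes 16.0% and 25.1%, from 11.4% and 17.0%), 11 and 5 at 5 TPM (13.3% and 17.4%), and 9 and 4 at a log2 ratio of at least 2 (4.76% and 6.06%). Dropping the minimum level, or SSX2IP and the CTAGE genes, could not change the count, since no such gene could pass or had passed the fold. When members that share 50-base words were summed, 2 values were higher and 1 lower. Summing only those that share at least 50% of words gave 3 higher and 3 lower, and requiring 0.5 TPM in both groups gave 5 and 3, both settings chosen after seeing the data. Fewer values entered these counts by construction. With a pseudocount of 0.1 TPM, the log2 ratio of the family sum moved to -6.82 for MAGEB, -2.60 for MAGEC, 2.49 for XAGE, -2.86 for PAGE and 1.55 for CTAG, all families with low values in a group, and 10 of 20 named members moved by over 1.5-fold, each away from 0. The median over members was 0 without a minimum level, because most members were then at or near 0. Median-ratio scaling multiplied si-FTO by 1.13, a shift of 0.18 in log2 ratio, and turned no family or named member. PRAME went from -0.74 to -0.57 and MAGEA3 from -0.50 to -0.33.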
